A study of Mus musculus with 6 samples.

Results

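Collagen genes were followed in myotubes of C2C12, an established line of mouse myoblasts, with and without long exposure to insulin. The members were the 40 genes whose whole platform symbol is Col, a number, the letter a and a number, out of 20416 genes with a value, and only probe sets with exactly 1 gene symbol were used. They were measured by 1861 probe sets, from 3 for Col10a1 to 114 for Col7a1. On each array a gene was given the median log2 value over its probe sets. Collagens that the platform lists under another symbol, such as Emid2 (now Col26a1), are not among the 40.

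There were 6 arrays, 3 per group. The 3 control cultures were untreated C2C12 myotubes, and the 3 insulin cultures were C2C12 myotubes that had been held in 100 nM insulin for 48 h in fusion medium, a treatment meant to make them insulin resistant. Cells of both groups had been grown in 10% fetal bovine serum, differentiated in 2% horse serum and used 4 to 7 days into differentiation, with medium renewed every 24 h. The labels call the arrays of a group biological replicates, without saying how the cultures were separated, and all come from 1 cell line, with 25 ng of total RNA amplified for each array. The authors deposited values made with robust multi-array averaging (RMA), which equalizes the arrays, so that a change is one relative to other transcripts. Base 2 of the logarithm was inferred from the range of 3.15 to 14.6.

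Collagens are proteins of 3 chains wound into a triple helix. Chains are made in the endoplasmic reticulum, hydroxylated on proline and lysine, folded with the help of chaperones, secreted, trimmed by proteases and cross-linked outside the cell. Fibrillar collagens form the tensile fibrils of connective tissue, and type IV collagen forms the sheet of the basement membrane that wraps each muscle fibre. Fibril-associated collagens with interrupted triple helices (FACITs) sit on the surface of fibrils. Type VI collagen forms beaded filaments beside the muscle basement membrane, and inherited defects of types VI and XII cause muscle disease.

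Insulin cultures differed from controls in 2 of the 40 genes. Col12a1, the chain of the FACIT type XII, was 2.01 times lower after insulin, and Col18a1, the chain of the basement membrane collagen XVIII from which endostatin is cut, was 1.36 times higher. The other 38 collagen genes, with all fibrillar and all type IV chains among them, did not pass (limma with Benjamini-Hochberg adjustment, threshold 0.05). Of all 14291 tested genes 15.9% passed, 9.56% higher and 6.35% lower, against 5.0% of the collagens. All 40 members passed the filter on dim genes, which lay at 7.05 on the log2 scale. The member nearest above that level was Col4a6, with a mean of 7.26 over the 6 arrays.

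**Figure D1:**
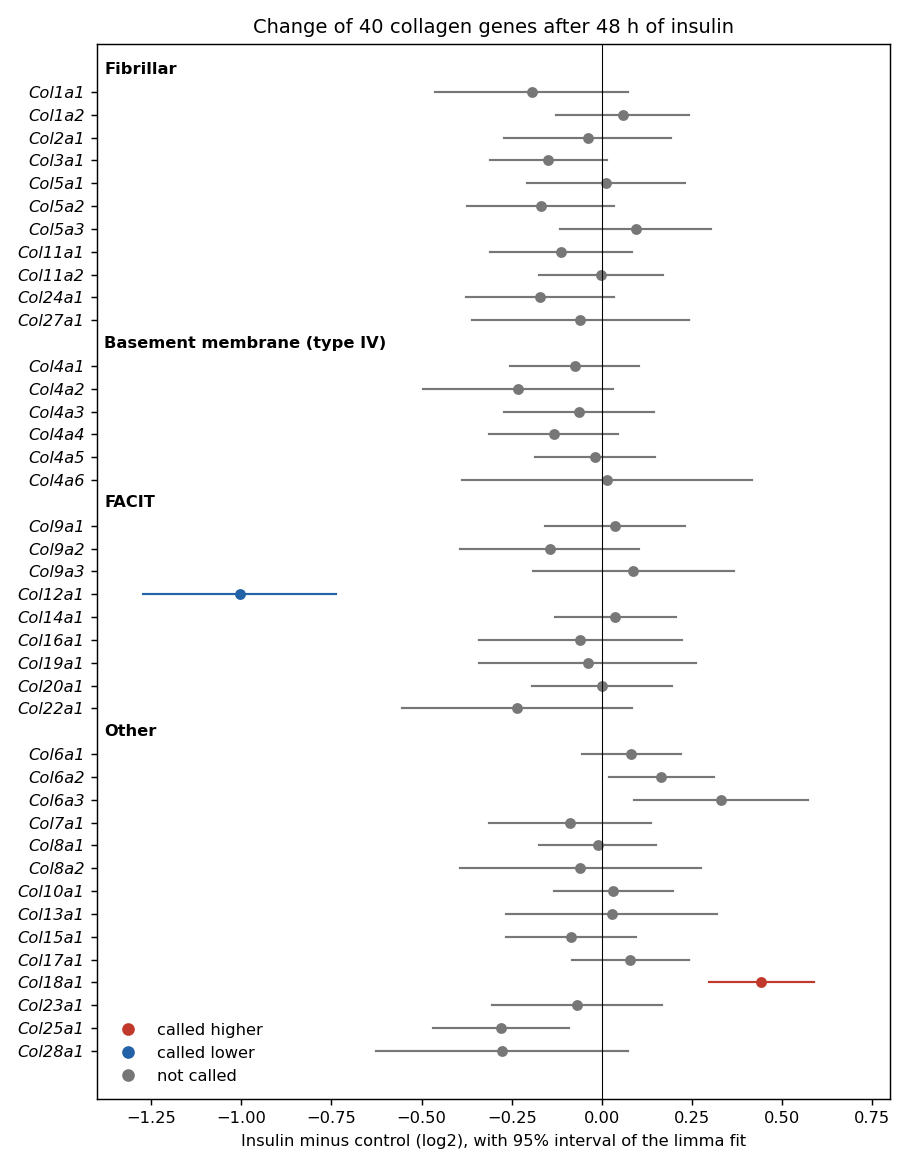
Change of each of the 40 collagen genes, insulin minus control on the log2 scale (horizontal axis), grouped by class, with points for the limma estimate over 3 insulin and 3 control arrays and lines for its 95% interval. Col12a1 lies at -1.005 and Col18a1 at 0.44, and the other 38 genes lie between -0.28 and 0.33.

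Promoter sequence for 32 of the 40 genes was matched by symbol to RefSeq windows of assembly GRCm38.p6, each from 250 bases before to 50 bases after a transcript start. Col12a1 was not among them. The windows of Col18a1 are shown because it was the collagen that rose and because 2 starts are listed for it, on the minus strand at chr10:77166481-77166780 and at chr10:77113656-77113955. Capitals mark the GC box, searched as GGGCGG on both strands, of which the first window holds 3 and the second none.
Col18a1 first start: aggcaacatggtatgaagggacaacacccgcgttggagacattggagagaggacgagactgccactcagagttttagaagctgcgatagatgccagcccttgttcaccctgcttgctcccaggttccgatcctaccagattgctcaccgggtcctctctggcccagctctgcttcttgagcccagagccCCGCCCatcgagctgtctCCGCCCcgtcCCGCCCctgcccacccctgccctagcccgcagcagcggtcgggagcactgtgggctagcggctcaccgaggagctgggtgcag
Col18a1 second start: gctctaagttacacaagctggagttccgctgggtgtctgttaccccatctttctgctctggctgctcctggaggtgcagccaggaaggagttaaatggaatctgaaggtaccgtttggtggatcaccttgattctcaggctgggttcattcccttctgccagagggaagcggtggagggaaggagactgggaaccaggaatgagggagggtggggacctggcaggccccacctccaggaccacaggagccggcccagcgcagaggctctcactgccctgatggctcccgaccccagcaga
The GC box was found in 57.1% of the 35 windows of collagen genes and in 35.7% of all 32851 windows. The median share of the bases G and C was 59.7% in the collagen windows and 52.7% in all windows. The part of base composition in the GC box shares was not tested. A match is a string of letters and not a measured binding site. The array table gives no positions for its probe sets, so the changes of Col18a1 could not be assigned to either start.

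Col4a1 and Col4a2, whose products join in the main type IV trimer, are read in opposite directions from neighbouring starts. Their windows are shown since they share 78 bases, chr8:11312777-11312854, which are in capitals and run as the reverse complement of each other. The window of Col4a1 is chr8:11312777-11313076 on the minus strand and that of Col4a2 is chr8:11312555-11312854 on the plus strand.
Col4a1: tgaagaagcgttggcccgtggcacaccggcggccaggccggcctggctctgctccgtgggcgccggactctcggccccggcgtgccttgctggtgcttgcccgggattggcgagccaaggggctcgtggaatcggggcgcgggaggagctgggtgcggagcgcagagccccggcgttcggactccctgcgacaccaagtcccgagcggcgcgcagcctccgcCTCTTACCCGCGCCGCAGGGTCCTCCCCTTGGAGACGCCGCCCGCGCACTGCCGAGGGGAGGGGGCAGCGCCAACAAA
Col4a2: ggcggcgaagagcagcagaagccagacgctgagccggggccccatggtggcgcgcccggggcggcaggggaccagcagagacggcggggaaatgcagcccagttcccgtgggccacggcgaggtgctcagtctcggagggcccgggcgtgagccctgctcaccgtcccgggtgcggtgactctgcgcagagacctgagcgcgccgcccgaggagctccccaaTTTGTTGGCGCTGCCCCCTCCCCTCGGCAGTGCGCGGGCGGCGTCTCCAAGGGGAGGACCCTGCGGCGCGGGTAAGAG
Across the members' windows the CCAAT box (CCAAT on both strands) was found in 34.3% and the TATA box (TATAAA on both strands) in 14.3%, against 37.4% and 13.6% of all windows.

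Col12a1 encodes the collagen whose long arms project from the surface of type I fibrils. Its log2 value was 11.33, 11.08 and 10.89 on the 3 control arrays and 10.12, 9.98 and 10.18 on the 3 insulin arrays. Every insulin array lay below every control array, and the gap between the groups was wider than the spread within either. The change was -1.005 ± 0.12 on the log2 scale (SE, n = 3 per group), with a 95% interval from -1.27 to -0.74 and a limma adjusted p of 0.00187. Ranked by log2 change, it was number 14 from the bottom among all 14291 tested genes. The controls spread more than the insulin arrays, with SDs of 0.22 and 0.10.

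The fall of Col12a1 was seen along nearly the whole set of its probe sets. All 68 had a negative change, from -1.44 to -0.04, and the middle of the distribution ran from -1.12 to -0.87 (quartiles). Of its 66 probe sets above the dim filter, 56 were called lower by limma, where 1.71% of all tested probe sets were called lower and 5.66% in either direction. With fewer arrays the call count fell, to 39, 20 and 50 without controls 1, 2 and 3. It was 12 without insulin 1 and 6 without insulin 2 or insulin 3, while the gene's own call was kept in each of these fits. Of all tested genes 14%, 8.66% and 17.1% were called without controls 1, 2 and 3, against 15.9% with all 6 arrays. Without insulin 1, 2 and 3 the shares were 8.87%, 7.32% and 7.8%. For probe sets, here and below, the share over all is given only for the fit to all 6 arrays. Taken alone, the brightest probe set was at -0.79 and passed as well (limma adjusted p = 0.00768).

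The other 8 FACIT genes did not pass the test, with changes from -0.23 to 0.09. They encode the chains of type IX, a cartilage collagen, and of types XIV, XVI, XIX, XX and XXII. Col22a1, a collagen of the junction between muscle and tendon, was at 8.09, 7.98 and 7.87 in controls and 7.84, 7.98 and 7.42 after insulin, so that the groups overlapped (change -0.23 ± 0.14, SE). With the brighter probe sets of the gene its change was 0.12. Col9a2 changed by -0.15 ± 0.11 and passed when only the brightest probe set was used (-0.32, limma adjusted p = 0.0348). Col14a1, whose protein is the FACIT closest in build to type XII, was at 7.63 ± 0.11 in controls and 7.66 ± 0.03 after insulin (SD, n = 3). The 95% interval of its change ran from -0.13 to 0.21 and did not meet that of Col12a1. Col14a1 was dim, with 23 of its 47 probe sets above the dim filter, against 66 of 68 for Col12a1. A fall would be hard to see at such a level, so the intervals cannot tell whether the fall was particular to type XII.

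Col18a1 had the values 10.33, 10.30 and 10.26 on the control arrays and 10.71, 10.79 and 10.70 on the insulin arrays. The groups were well apart and each was tight, with SDs of 0.04 and 0.05. The change was 0.44 ± 0.06 on the log2 scale (SE), the 95% interval 0.30 to 0.59 and the limma adjusted p 0.00389. Of its 43 probe sets 41 had a positive change, and the range was -0.03 to 1.02. Of the 42 above the filter 21 were called higher, where 3.95% of all tested probe sets were called higher. That count was 18, 11 and 12 when controls 1, 2 and 3 were left out in turn, and 5, 3 and 2 when insulin arrays 1, 2 and 3 were. The brightest probe set gave 0.45 (limma adjusted p = 0.0235).

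Collagen XV is the closest relative of collagen XVIII and also lies in the muscle basement membrane. Col15a1 was at 8.18, 7.96 and 8.0 in controls and 7.97, 7.90 and 8.02 after insulin. These values overlapped, and the change of -0.09 ± 0.08 (SE) did not pass (limma adjusted p = 0.524). Its direction turned with the mean of the gene's probe sets (0.05) and with the brighter ones (0.05). The 95% interval, -0.27 to 0.10, did not meet that of Col18a1. Col15a1 was the dimmer gene, with a mean of 8.01 over the 6 arrays against 10.51. Of its 40 probe sets 26 lay above the dim filter, against 42 of 43 for Col18a1. The intervals thus cannot tell whether the rise was particular to collagen XVIII.

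Type VI collagen is assembled from 3 different chains, and all 3 genes had insulin arrays above all control arrays, without passing the test. Col6a3, the longest chain, was at 11.12, 11.07 and 10.74 in controls and 11.27, 11.26 and 11.39 after insulin. The change was 0.33 ± 0.10 (SE, limma adjusted p = 0.0712). Col6a2 went from 10.44, 10.36 and 10.37 to 10.53, 10.53 and 10.60, with a change of 0.17 ± 0.06 (adjusted p = 0.121). Col6a1 went from 11.50, 11.50 and 11.52 to 11.58, 11.62 and 11.56, with a change of 0.08 ± 0.06 (adjusted p = 0.415). The 3 intervals were 0.09 to 0.57, 0.02 to 0.31 and -0.06 to 0.22 in this order, so that they overlapped. Arrays of the groups did not overlap in 35.7% of all tested genes, and lay above all controls in 20.0%.

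The calls for type VI depended on the settings. Col6a3 passed without control 1 (0.40, limma adjusted p = 0.047) and with the mean of its probe sets (0.34, adjusted p = 0.00656), and it passed in 4 more of its 16 alternatives. At the level of probe sets, 46 of its 47 had a positive change. Of 46 above the dim filter 8 were called higher, where 3.95% of all tested probe sets were called higher. That count was 0 to 2 when any single array was left out. Col6a2 was at -0.13 with its brightest probe set, the opposite direction, and passed with array quality weights (0.19, limma adjusted p = 0.0146).

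**Figure D2:**
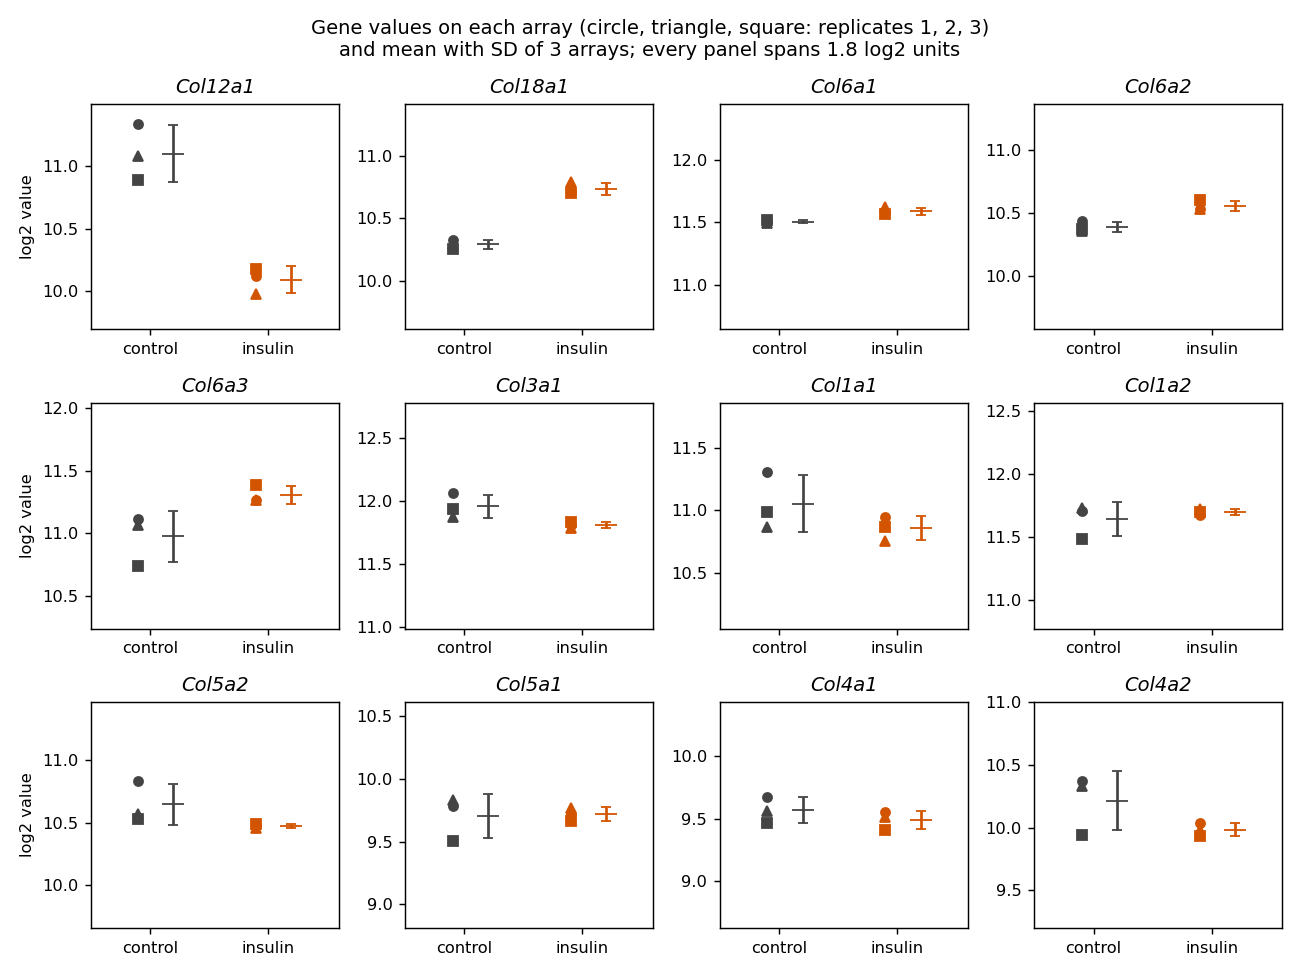
Gene values on the log2 scale (vertical axis) for 12 collagen genes on each of the 3 control and 3 insulin arrays, with the mean and SD of each group beside the points. The groups are apart for Col12a1, Col18a1, Col6a1, Col6a2, Col6a3, Col3a1 and Col5a2, and they overlap for Col1a1, Col1a2, Col5a1, Col4a1 and Col4a2.

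None of the 11 fibrillar collagen genes passed limma's test, and their median change was -0.06, where the median of all tested genes was -0.0028. At an unadjusted p under 0.05 the limma count was also 0 of 11, where the share was 12.5% of the 40 collagens and 29.9% of all tested genes. The median was -0.15, -0.13 and -0.10 when control 3, insulin 3 and insulin 2 were left out in turn, and was -0.04 without control 2. Their changes ran from -0.19 to 0.09. Col3a1, the chain of type III collagen that mixes with type I in fibrils, was at 12.06, 11.87 and 11.94 in controls and 11.81, 11.78 and 11.83 after insulin. The insulin arrays lay just below the controls, and the change of -0.15 ± 0.07 (SE) did not pass (limma adjusted p = 0.203). Col5a2, a chain of the type V collagen that starts fibrils, had the same order, with 10.83, 10.57 and 10.53 against 10.48, 10.46 and 10.49 (change -0.17 ± 0.09).

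The chains of type I collagen did not differ between the groups beyond their spread. Col1a1 was at 11.31, 10.86 and 10.99 in controls and 10.95, 10.76 and 10.87 after insulin, with a change of -0.19 ± 0.12 (SE) and a 95% interval of -0.46 to 0.07. Without control 1 its change was -0.07, and -0.04 with array quality weights. Col1a2, its partner in the trimer, was at 11.70, 11.73 and 11.48 in controls and 11.67, 11.72 and 11.70 after insulin. Its change was 0.06 ± 0.08, with an interval of -0.13 to 0.24, and turned to -0.02 with array quality weights. Col5a1 changed by 0.01 ± 0.10, and its sign also turned with array weights (-0.09), with repeated quantile normalization (-0.02) and after centring the arrays (-0.0088).

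The remaining fibrillar genes were of cartilage collagens and of minor fibrils. Col2a1, Col11a1 and Col11a2, of cartilage fibrils, changed by -0.04, -0.11 and -0.0031. Col5a3 was at 9.44 ± 0.15 in controls and 9.53 ± 0.08 after insulin (SD, n = 3), and 3 of its 63 tested probe sets were called higher, near the 3.95% of all tested probe sets, a count of 0 without control 2, control 3 or any insulin array. Col24a1 changed by -0.17 ± 0.09 (SE), which passed without control 3 (-0.26, limma adjusted p = 0.0489), and Col27a1 by -0.06 ± 0.13.

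None of the 6 type IV genes passed either, and none did at an unadjusted p under 0.05, which 29.9% of all tested genes reached. Their median change was -0.07, and -0.12 without control 3. Col4a2 was at 10.37, 10.33 and 9.94 in controls and 10.04, 9.98 and 9.93 after insulin. Control 3 lay with the insulin arrays and the other controls above them, giving a change of -0.23 ± 0.11 (SE, limma adjusted p = 0.22). Without control 3 the change was -0.37 and passed (limma adjusted p = 0.0158). Col4a1, read from the other side of the shared promoter region, was at 9.67, 9.57 and 9.46 in controls and 9.55, 9.51 and 9.41 after insulin, with a change of -0.08 ± 0.08. Col4a4 changed by -0.13 ± 0.08, with values from 7.90 to 7.96 in controls and from 7.66 to 7.90 after insulin. Col4a6, the dimmest member, changed by 0.01 ± 0.17, and Col4a3 and Col4a5 by -0.06 and -0.02.

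Pairs of chains of the same type were compared on the same array, which cancels what the arrays share. In 6 pairs the change of the first gene minus that of the second lay between -0.25 and 0.18. For Col1a1 minus Col1a2 it was -0.25, with controls at 0.19, -0.28 and 0.09 about their mean and insulin arrays at -0.14, -0.37 and -0.24 from it. Control 2 lay among the insulin values. The exact two-sided permutation test gave p = 0.3 for this pair, for Col4a1 minus Col4a2 (0.16), for Col5a1 minus Col5a2 (0.18) and for Col11a1 minus Col11a2 (-0.11). It gave p = 0.2 for Col6a1 minus Col6a2 (-0.08) and p = 0.8 for Col8a1 minus Col8a2 (0.05), and the Benjamini-Hochberg values over the 6 exact tests were 0.36 or higher. With 3 against 3 arrays the smallest p this test can give is 0.1.

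**Figure D3:**
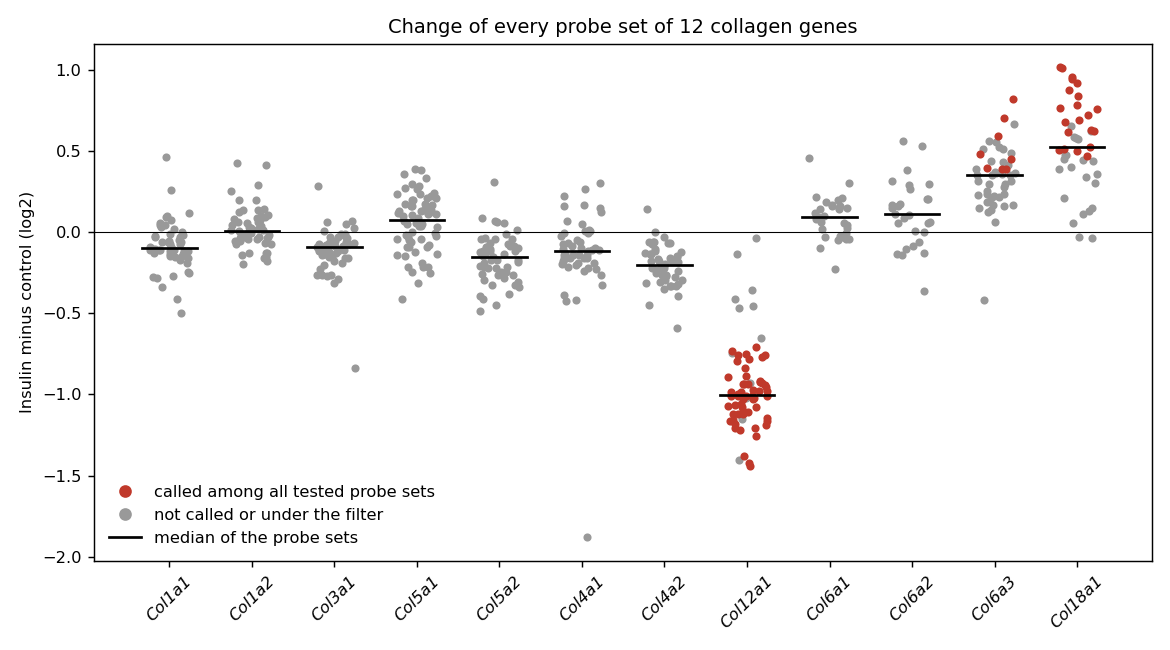
Change of every probe set, insulin minus control on the log2 scale (vertical axis), for 12 collagen genes, with red points for probe sets called by limma over all tested probe sets and black lines for the median of a gene's probe set changes. The 68 probe sets of Col12a1 all lie below 0, and 41 of the 43 of Col18a1 and 46 of the 47 of Col6a3 lie above it. Probe sets below 0 are also 46 of 48 for Col4a2, 51 of 57 for Col5a2 and 45 of 51 for Col3a1, genes that were not called.

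The 14 genes outside these classes had a median change of 0.0077, and Col18a1 was the 1 called. The sign of this median was not stable, at -0.07 with the brightest probe sets, -0.05 with the mean of probe sets, -0.0080 with repeated quantile normalization, -0.02 without control 3 and 0.08 with the filter at the 50th percentile. Col25a1, a transmembrane collagen that guides motor axons to muscle, was at 8.18, 8.12 and 8.12 in controls and 7.78, 8.02 and 7.78 after insulin. All insulin arrays lay below all controls, and the change of -0.28 ± 0.08 (SE) missed the threshold (limma adjusted p = 0.0541). It passed in 4 of 15 alternatives, of which 1 left out insulin 2 (-0.36, adjusted p = 0.036). The other transmembrane collagens Col13a1, Col17a1 and Col23a1 changed by 0.03, 0.08 and -0.07. Col8a1 and Col8a2, of the network under endothelium, and Col10a1, of growth plate cartilage, changed by -0.01, -0.06 and 0.03. All 5 probe sets of Col8a1 had a negative change, from -0.47 to -0.01, and the gene was called lower with the mean of its probe sets. Col7a1, of the anchoring fibrils of skin, changed by -0.09 and Col28a1 by -0.28 ± 0.15, with overlapping arrays.

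The controls kept much the same order across these genes. Control 1 was the highest of the 3 controls in 27 of 40 members (67.5%) and in 35.2% of all tested genes, and control 3 was the lowest in 29 (72.5%) and in 37.5%. The median control SD was 0.14 for the collagens and 0.11 for all tested genes, and the median insulin SD was 0.08 for both. Whether this order of the controls plays a part in the small changes above was not tested. Col12a1 and Col18a1 kept their calls whichever single array was left out.

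A level of 10 on the log2 scale, chosen after the data had been seen, was reached by 10 members over the 6 arrays. In 7 of these 10 the insulin and control arrays did not overlap, 4 higher and 3 lower, where 45.7% of all genes of that level did not overlap, and 2 were called, where 19.6% of them were called. Among the 30 dimmer members the arrays were apart in 1, Col25a1, where 28.5% of all tested genes under that level did not overlap. Signal over background was not judged for any gene.

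The genes that build, bind and take apart collagens were described from 7 lists with 94 entries, of which 81 were tested. Of these 7 rose and 14 fell by limma, and 60 did not pass, with a median change of -0.06. That is 25.9% called, against 15.9% of all tested genes. These counts moved when an array was left out. Without control 2, 1 rose and 8 fell, where 8.66% of all tested genes were called, and without control 3, 5 rose and 20 fell, where 17.1% were called. Leaving out insulin 1, insulin 2 or insulin 3 gave 0, 1 and 0 that rose and 6, 6 and 4 that fell, where the shares of all tested genes called were 8.87%, 7.32% and 7.80%.

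Inside the cell, folding and modification genes mostly did not pass, with 12.5% called, against 15.9% of all tested genes. Of 16 tested, P4ha2, a catalytic subunit of prolyl 4-hydroxylase, rose by 0.26 ± 0.07 on the log2 scale (SE), and 1110036O03Rik (P3h4), a partner of the lysyl hydroxylase complex, fell by 0.27 ± 0.07. These calls were lost in 10 and 8 of 16 alternatives, among them leaving out any insulin array. The other catalytic subunit genes went opposite ways without passing, P4ha1 by 0.26 ± 0.08 (limma adjusted p = 0.0740) and P4ha3 by -0.26 ± 0.12 (0.179), and P4hb, the partner subunit, changed by 0.03. The chaperone gene Serpinh1 changed by 0.06 and the lysyl hydroxylase genes Plod1, Plod2 and Plod3 by -0.08, 0.04 and 0.05. Of 11 tested export and processing genes 9.09% were called. Adamts2, the protease that removes the amino-terminal propeptide of procollagen, fell by 0.35 ± 0.08, a call lost in 5 of 16 alternatives. Bmp1, which removes the other end, changed by -0.19 without passing.

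Lysyl oxidases cross-link the chains outside the cell. Of the 5 lysyl oxidase genes 3 fell, 1 rose and 1 did not pass, with a median change of -0.29. That is 80.0% of a list of 5, where 15.9% of all tested genes were called. Loxl1 was at 11.29, 11.24 and 11.21 in controls and 10.74, 10.80 and 10.88 after insulin, and fell by 0.44 ± 0.07 (SE, limma adjusted p = 0.00507). Lox fell from 11.93, 11.99 and 12.12 to 11.62, 11.68 and 11.67. Loxl3 fell by 0.29 ± 0.07. Loxl4 rose by 0.48 ± 0.11, a change of 0.08 with its brightest probe set. Loxl1 passed in all 16 alternatives. Without any 1 of the insulin arrays Loxl1 was the single cross-linking gene that fell, and Loxl4 did not pass. Of all tested genes 8.87%, 7.32% and 7.80% were called without insulin 1, insulin 2 and insulin 3.

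**Figure D4:**
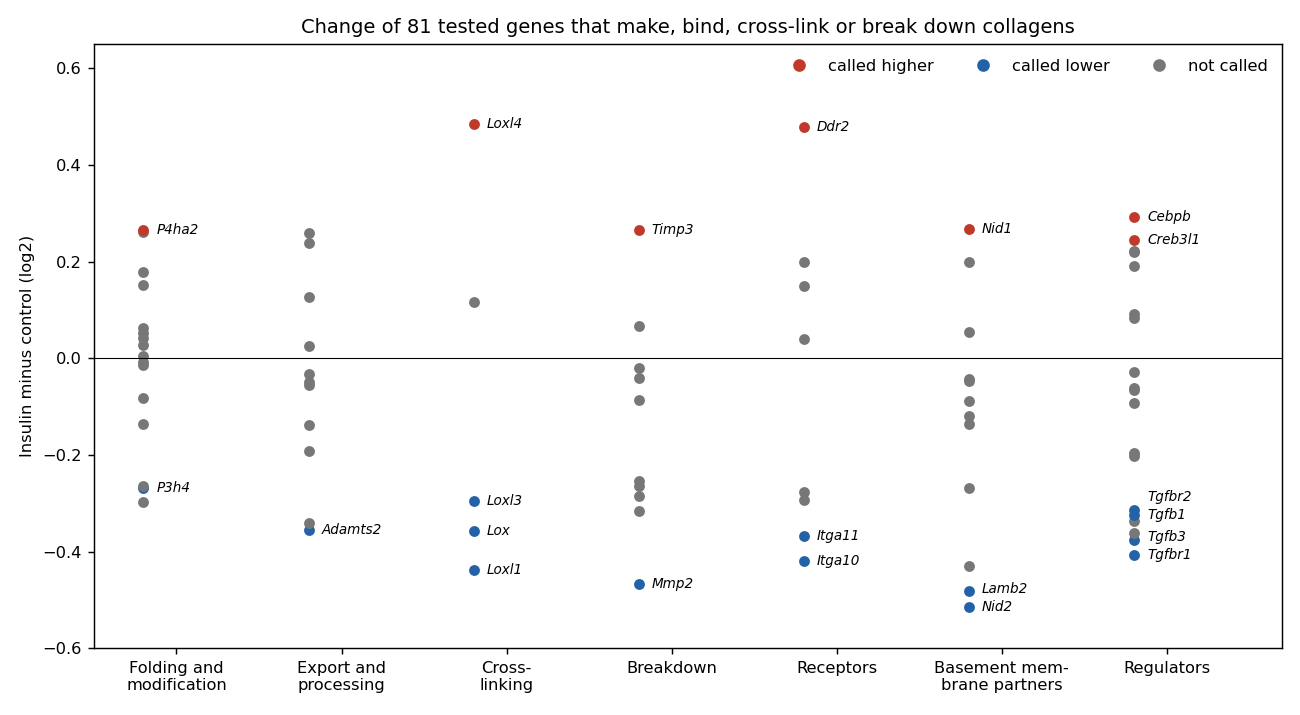
Change of the 81 tested genes of 7 lists, insulin minus control on the log2 scale (vertical axis), with red and blue points for genes called higher or lower by limma and gray points for the rest. Named genes are the 7 that rose and the 14 that fell, and P3h4 is the present name of 1110036O03Rik.

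Breakdown genes and receptors went both ways, with 20.0% and 37.5% of those tested called, against 15.9% of all tested genes. Of 10 tested breakdown genes Mmp2, a gelatinase, fell from 10.06 ± 0.02 to 9.60 ± 0.06 (SD, n = 3), and Timp3, a metalloproteinase inhibitor, rose by 0.27 ± 0.07 (SE). The call of Timp3 was lost in 11 of 16 alternatives, with changes down to 0.12 (limma adjusted p up to 0.279), and that of Mmp2 in 2. Of 8 tested receptor genes, the collagen-binding integrin subunits Itga10 and Itga11 fell by 0.42 ± 0.09 and 0.37 ± 0.10. The p of Itga11 was close to the threshold (limma adjusted p = 0.0497). Itga11 was at 7.39 in controls and 7.03 after insulin, under the filter level of 7.05, so it was tested only through its control values. Its call was lost in 10 of 15 alternatives, and its brightest probe set was at -0.10 (limma adjusted p = 0.784). Ddr2, a receptor tyrosine kinase that binds fibrillar collagen, rose by 0.48 ± 0.10. Of the receptor calls, that of Ddr2 was kept without control 1, control 3 or insulin 2 and lost without control 2 (limma adjusted p = 0.058), insulin 1 (0.0625) or insulin 3 (0.0664). No receptor gene was called lower without control 2 or without any 1 of the insulin arrays.

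Partners of collagen in the basement membrane were called in 3 of 12 cases (25.0%), against 15.9% of all tested genes. Nid2, a nidogen that links laminin to type IV collagen, was at 12.46, 12.43 and 12.32 in controls and 11.91, 11.82 and 11.93 after insulin, and fell by 0.51 ± 0.07 (SE, limma adjusted p = 0.00322). The related Nid1 rose by 0.27 ± 0.06, from 12.72 ± 0.03 to 12.99 ± 0.04 (SD, n = 3). The nidogens thus had calls in opposite directions, though that of Nid1 was lost without control 2 (limma adjusted p = 0.0879) or any insulin array and with its brightest probe set (0.12, adjusted p = 0.31). Lamb2, a laminin chain of muscle, fell by 0.48 ± 0.09. Hspg2 (perlecan), at -0.43 ± 0.16, did not pass.

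Regulators of collagen genes included 4 that fell and 2 that rose among 19, or 31.6% called, against 15.9% of all tested genes. Those that fell were the ligands Tgfb1 (0.32 ± 0.07 lower on the log2 scale, SE) and Tgfb3 (0.38 ± 0.08 lower) and the receptors Tgfbr1 (0.41 ± 0.10 lower) and Tgfbr2 (0.31 ± 0.07 lower) of the TGF-beta pathway, which is known to induce collagen synthesis. Tgfb3 was at 12.93, 12.78 and 12.77 in controls and 12.50, 12.49 and 12.36 after insulin. The other listed genes of that pathway did not pass and went both ways. Their changes were -0.06 for the ligand Tgfb2, 0.09 for Smad2, -0.20 for Smad3 and -0.07 for Smad4. Smad7 was at 0.19, Ski at -0.36 and Skil at -0.09. The count of regulators that fell was 1 without control 2, and it was 1, 2 and 0 when insulin arrays 1, 2 and 3 were left out in turn. The count that rose was 0 without control 2, control 3 or any insulin array. Of all tested genes 8.66% were called without control 2 and 17.1% without control 3. Without insulin 1, insulin 2 and insulin 3 the shares were 8.87%, 7.32% and 7.80%. The genes that rose were Creb3l1 (0.24), a transcription factor of collagen secretion, and Cebpb (0.29), whose calls were lost in 13 and 7 of 16 alternatives.

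Markers were read beside these results. The 14 myotube markers had control means from 10.26 to 14.16 and all were tested. Their mean over the list was 12.92 to 13.10 on control arrays and 12.73 to 12.81 on insulin arrays, with 3 called lower (Myog, Ckm and Gm7325, now Mymx). That is 21.4% called, against 15.9% of all tested genes. The median change of the 14 was -0.23, and all but Myh4 (0.09) had a negative change. All but Myh3 and Myh4 had every insulin array below every control, as did 15.7% of all tested genes. Of 12 fibroblast markers, which include genes that C2C12 cells express themselves, Dcn, Pdgfrb and Mfap5 fell, Cd34 and Pi16 rose, 5 did not pass and 2 lay under the filter, Lum and Tcf21. Their list mean was 8.77 to 8.82 in controls and 8.63 to 8.73 after insulin. Of 5 smooth muscle markers Tagln and Cnn1 fell, where 15.9% of all tested genes were called. Tagln went from 10.72 to 9.79. Cnn1 was at 7.24 in controls and 6.87 after insulin, under the filter level of 7.05. It was thus tested only through its control values. The part of these shifts in the collagen changes was not tested, and in a bulk sample fewer cells of a type cannot be told apart from less RNA per cell.

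Markers of endothelial cells, adipocytes and macrophages were mostly dim. Of 6 endothelial, 5 adipocyte and 5 macrophage markers 4, 3 and 4 lay under the filter, and none of those tested was called. Of 9 cartilage and bone markers 8 had a value, 3 lay under the filter (Acan, Ibsp and Matn1) and none was called. They were not all dim, and Sox9, a cartilage transcription factor that is also among the regulators above, was at 10.61 in controls and 10.83 after insulin (change 0.22, limma adjusted p = 0.0808). Runx2, a transcription factor of bone, was at 8.67 and 8.90 (change 0.23, limma adjusted p = 0.152). Alpl, Sp7 and Comp, the other tested markers of this list, changed by 0.08, -0.06 and -0.01. Sox9 and Runx2 had all insulin arrays above all controls, as did 20.0% of all tested genes. Their part in the collagen changes was not tested.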

How the data were processed

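The deposited values are log2 expression for each of the probe sets on every array, made by the authors with RMA, per the submitters' processing notes. The RMA version, genome build and scan dates are not stated in the sources used here, and detection calls were not used here. Precision is limited by the number of arrays. Of 241576 probe sets, 212097 had exactly 1 symbol in the platform annotation, 4475 several and 25004 none. Genes whose mean lay under the 30th percentile (7.05) were left out, which left 14291 of 20416. The difference of insulin and control was estimated by limma 3.58.1 in R 4.3.3 (lmFit and eBayes, two-sided, no covariates) over all tested genes, and likewise over probe sets, with Benjamini-Hochberg adjustment at 0.05. SE is that of the moderated fit. The fit was tested on simulated data. Classes and lists come from general knowledge, matched through RefSeq names and synonyms of GRCm38.p6. The members and lists were chosen with earlier results of these data known, so no set test was made. Every collagen called, the 3 members of each class with the smallest p, a fixed list of 13 chains, the dimmest member and every called gene of the 7 lists were named by rule, and others were named after their values had been seen. Alternatives were a replicate block, repeated quantile normalization, centring, other filters, a trended robust prior, array weights, other gene summaries and leaving out each array. Python 3.11.15 was used for summaries. The p-values measure the spread between these 6 arrays.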

Additional observations from a re-analysis of the deposited data

How the results depend on the processing

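Col12a1 and Col18a1 kept their direction and call in all 16 alternatives, with changes of -1.11 to -0.79 and 0.41 to 0.66. Collagen genes called higher were 2 with the filter at the 50th percentile, the intensity trend, the mean of probe sets and the brighter probe sets, and 3 with array quality weights. Those called lower were 2 with centred arrays, the brightest probe set and the brighter probe sets, 3 with the mean and 4 with weights. Array weights called 5007 genes in all (35.0%), the mean 3436 (24.0%) and the brightest probe set 1532 (10.7%), against 2274 (15.9%). The filter at the 50th percentile kept 23 of the 40 members and called 24.5% of the genes it left. The share of tested genes called was 18.9% with the trend, 18.1% with the brighter probe sets, 16.0% with centred arrays and 8.21% with no filter. By class, fibrillar genes called lower were 1 with weights and with the brighter probe sets, type IV genes lower 1 with weights, and FACIT genes lower 2 with the brightest probe set. Other collagens called higher were 2 with the 50th percentile, the trend, the mean and the brighter probe sets and 3 with weights, and called lower 1 with centred arrays and weights and 2 with the mean. With Col15a1 and Col18a1 moved to the basement membrane class, that class had 1 called higher and the others 0. Genes of the 7 lists called higher were 4 with centred arrays, 3 with no filter, 11 with the 50th percentile, 15 with weights, 2 with the brightest probe set and 11 with the mean, and those called lower were 25 with weights, 7 with the brightest probe set and 23 with the mean. Of 1413 tested collagen probe sets 33 were called higher and 56 lower in the report's fit. Of all tested probe sets 3.95% were called higher and 1.71% lower. All 56 were of Col12a1, and of the 33 there were 21 of Col18a1 and 8 of Col6a3. Collagen probe sets called higher were 12 with no filter and 51 with the 50th percentile, and those called lower were 33 with no filter.

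The report's fit did not treat same-numbered replicates as pairs. The correlations of their deviations were 0.02, 0.19 and -0.00036, which cannot show whether the cultures were handled as pairs. With the replicate block 2 collagens were still called and 1970 genes in all, genes of the 7 lists were 2 higher and 13 lower, and collagen probe sets 9 higher and 34 lower.

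The median change of the other collagens, 0.0077, was also below 0 with centred arrays (-0.013), weights (-0.011) and the brighter probe sets (-0.012). Directions turned for Col1a2 with weights (-0.016), Col4a6 with centred arrays (-0.0063) and the mean (-0.036), Col5a1 with repeated quantile normalization (-0.017), centred arrays (-0.0088) and weights (-0.089), Col6a2 with the brightest probe set (-0.13), Col15a1 with the mean (0.051) and the brighter probe sets (0.055), and Col22a1 with the brighter probe sets (0.12). Among pairs, Col6a1 minus Col6a2 was 0.16 with the brightest and 0.064 with the brighter probe sets, Col8a1 minus Col8a2 -0.088 with the brightest, -0.15 with the mean and -0.071 with the brighter, and Col11a1 minus Col11a2 0.091 and 0.056 with the brightest and brighter. The cause of these differences was not tested.

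Leaving out each array in turn gave 1 to 2 collagens higher and 1 to 3 lower, fibrillar genes lower 0 to 1, type IV genes lower 0 to 1, other collagens higher 1 to 2 and lower 0 to 1. Class medians were -0.16 to 0.038 for FACITs, -0.12 to -0.057 for type IV, -0.15 to -0.037 for fibrillar genes and -0.030 to 0.054 for the others. Genes of the 7 lists ran from 0 to 7 higher and 4 to 20 lower, and collagen probe sets from 2 to 23 higher and 6 to 54 lower. Changes ran from -0.020 to 0.10 for Col1a2, -0.11 to 0.23 for Col4a6, -0.089 to 0.075 for Col5a1 and -0.13 to 0.22 for Col8a1 minus Col8a2.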
